A study of Mus musculus with 12 samples.

Results

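The genes described here mark the step from cortical stem cell to neuron: the proneural transcription factors Neurog1, Neurog2 and Neurod1, the intermediate progenitor factors Eomes and Insm1, and Rnd2, Btg2 and Gadd45g. They are the 8 genes of this kind whose symbols were looked up in the platform's table of probes and genes. All 8 were found, each with 1 probe, out of 21998 probes on the array, and all 8 were measured on 12 of 12 arrays, so all stood among the 14418 features tested. The samples were mouse neocortex at E13.5, an embryonic age at which cortical progenitors divide and neurons are being born. Each neocortex was cut in 3 along its length, and RNA of the rostral and the caudal piece of 1 pool competed on each 2-colour array. The mice were MF1, which is outbred (3 pools), and C57, which is inbred (3 pools; C57Bl\6 in the design text). No treatment or allele is named, and each pool held tissue of 3 embryos per the labels, where the design text gives a minimum of 2 and speaks of single litters. Every pool was read on 2 arrays with the dyes exchanged. The pool is the replicate, and since the labels name no separate litters, the p-values reflect only how far these pools spread, which may partly be technical.

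Radial glia, the stem cells of the cortical ventricular zone, divide either to renew themselves or to make neurons, often through intermediate progenitors that divide again further from the ventricle. Neurog1 and Neurog2 are basic helix-loop-helix proteins that start this commitment: they pair with E proteins, bind the E-box in DNA, and switch on the Notch ligand Dll1, while the Hes and Id proteins hold them back. Eomes (also called Tbr2) marks the intermediate progenitors, and neurogenesis in the mouse cortex is known to run ahead at its rostral and lateral side.

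The E-box, CANNTG (N is any base; the motif reads the same way on both strands), was looked for in the 250 bases before the start of each gene in the RefSeq promoter table (GRCm38.p6). Of these 8 genes, 6 were matched there. It was found in 2 of them, and 66.2% of the 32851 promoters in the table held at least 1. Both are shown because E-boxes are what proneural proteins bind, with the E-boxes in capitals.
Gadd45g promoter: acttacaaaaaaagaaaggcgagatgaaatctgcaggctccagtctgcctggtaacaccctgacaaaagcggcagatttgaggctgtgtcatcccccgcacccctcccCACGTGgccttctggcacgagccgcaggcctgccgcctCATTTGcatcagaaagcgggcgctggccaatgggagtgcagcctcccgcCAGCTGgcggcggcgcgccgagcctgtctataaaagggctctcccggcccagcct
Neurod1 promoter: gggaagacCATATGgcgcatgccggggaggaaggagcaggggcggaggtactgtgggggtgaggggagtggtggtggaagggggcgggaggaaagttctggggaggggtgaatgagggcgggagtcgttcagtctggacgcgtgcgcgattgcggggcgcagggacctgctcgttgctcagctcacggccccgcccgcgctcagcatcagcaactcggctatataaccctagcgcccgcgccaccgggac
The Gadd45g window lies on the plus strand at chr13:51846425-51846674. Its E-boxes begin 142, 104 and 55 bases before the start: CACGTG is in 6.02% of all promoters of this length, CATTTG (or CAAATG on the other strand) in 12% and CAGCTG in 13.0%. The Neurod1 window lies on the minus strand at chr2:79456637-79456886, with CATATG, held by 3.46% of promoters, beginning 242 bases before the start. The windows of Eomes, Neurog1, Neurog2 and Btg2 held 0. The Neurog2 window, at chr3:127632886-127633135 on the plus strand, lies wholly inside the annotated span of the gene, chr3:127632733-127635636. For Neurog2 the 0 therefore does not describe the bases before that span. A match is a description of the letters alone.

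Values below are log2 ratios of rostral over caudal cortex, each the mean of both arrays of a pool after each array was centred on its median; 0 is the median of the array, and 1 is a doubling. In bulk tissue, fewer cells of a type and less RNA per cell cannot be told apart. The direction is the likely one, because the deposited files do not name the numerator. It rests on reference genes of known gradient: Nr2f1, a nuclear receptor of caudal cortex, was at -1.14 ± 0.57 (SD, n = 6 pools), and Etv5, a target of rostral FGF signals, at 0.54 ± 0.05. Each is the mean of 2 probes, at -1.38 and -0.90 for Nr2f1 and at 0.61 and 0.47 for Etv5. Both Nr2f1 probes were below 0 in 6 of 6 pools, and the Etv5 probes were above 0 in 5 and 6. Over MF1 pools 1 to 3 the first Etv5 probe fell, at 1.096, 0.6535 and -0.0375. The second rose in the same pools, at 0.078, 0.2795 and 1.001. The SD of 0.05 thus describes the average of the 2 Etv5 probes and not the spread of either. The reference lists were not uniform: of 5 caudal genes 4 were below 0 and Emx2 was at 0.091, and of 9 rostral genes 6 were above 0, with Fgf15 at -0.39, Spry4 at -0.041 (5 pools) and Fgf17 at -0.052. At an unadjusted p under 0.05 by limma, 3 caudal genes were lower and 3 rostral genes higher. Of all features 4.64% were lower and 4.34% higher. With the opposite numerator every sign below would turn.

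Of these 8 genes, 2 had ratios above 0, that is on the rostral side, in every pool and on every centred array: the neuronal migration gene Rnd2 (1.28-fold) and the zinc-finger gene Insm1 (1.24-fold). Neurod1 had a mean below 0. Eomes, the defining gene of intermediate progenitors, and Btg2 had means near 0. With limma over all features, 0 of the 8 passed the adjusted threshold of 0.05, with adjusted p between 0.484 and 0.969, and 0% of all features passed. At an unadjusted p under 0.05, 2 of the 8 were higher and 0 lower, where 4.34% of all features were higher and 4.64% lower. With arrays not centred 0 of the 8 were higher and 1 lower, Neurod1. In that setting 2168 of 14418 features were at such a p, and only 6.64% of these 2168 were higher. Over 16 alternatives Rnd2 was at such a p, and higher, in 13, Insm1 in 10 and Neurog2 in 1, while Neurod1 was lower in 6. The alternatives reuse the same 6 pools, so these counts are not independent. Features at such a p ranged from 798 of 13110 without MF1 pool 1 to 2592 of 17174 with rostral RNA in Cy5 only. In the main setting they were 1295 of 14418. The median of the 8 genes was 0.072, with 6 above 0 and 2 below, and that of all features was 0.0091. The pool medians of the 8 genes were lowest in MF1 pool 3, at 0.040, and highest in MF1 pool 1, at 0.32. Leaving the arrays uncentred put the median of all features at -0.18 and that of the 8 genes at -0.12.

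**Figure D1:**
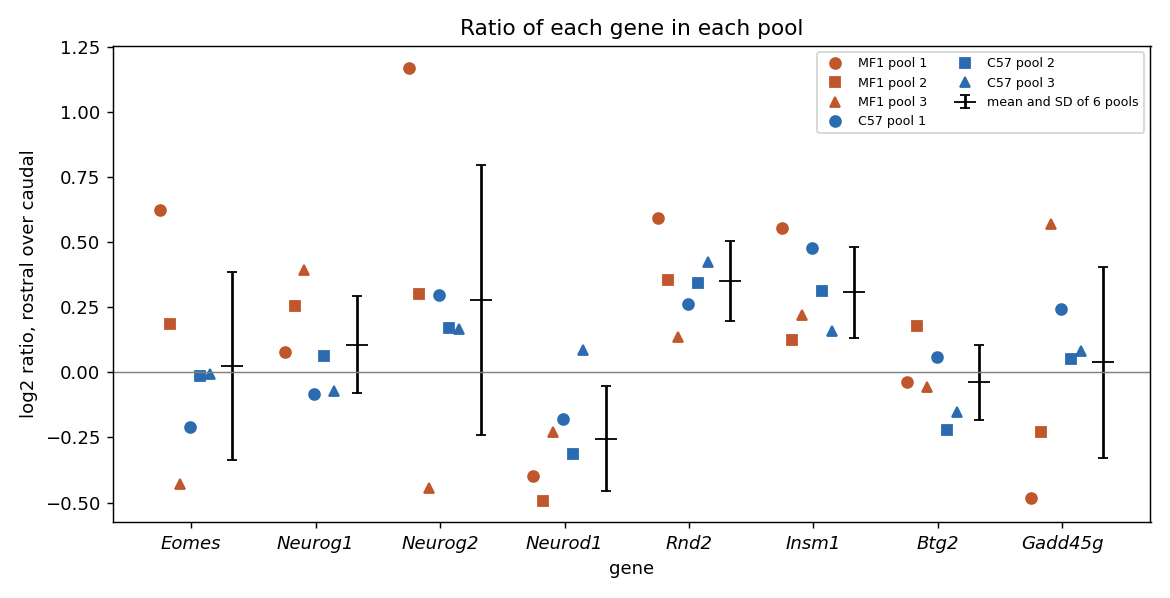
Log2 ratio of rostral over caudal cortex (vertical axis) for the 8 genes (horizontal axis) in each of 6 pools, with the mean and SD of the 6 pools in black. All pools of Rnd2 and Insm1 lie above 0, while the MF1 pools (orange) of Eomes, Neurog2 and Gadd45g spread widely and their C57 pools (blue) lie close together.

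Rnd2, a gene that Neurog2 switches on to let newborn neurons migrate, had ratios of 0.59, 0.36 and 0.14 in MF1 pools 1 to 3 and of 0.26, 0.34 and 0.43 in C57 pools 1 to 3. The strains overlapped, and MF1 pool 1 was the highest and MF1 pool 3 the lowest of the 6. Its mean was 0.35 ± 0.15 (SD, n = 6), a 1.28-fold difference with a 95% interval from 0.087 to 0.62 (limma, unadjusted p = 0.0166, adjusted p = 0.484). The strain means were alike in size, 0.36 ± 0.23 in MF1 and 0.34 ± 0.08 in C57 (SD, n = 3 pools each). Only 5.23% of features had a smaller SD over pools than Rnd2.

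Insm1, a zinc-finger factor that promotes the formation of intermediate progenitors, had ratios of 0.55, 0.13 and 0.22 in MF1 pools 1 to 3, and in C57 pools 1 to 3 ratios of 0.48, 0.31 and 0.16. Pool 1 of each strain was the highest and the strains overlapped. The mean was 0.31 ± 0.17 (SD, n = 6), 1.24-fold, with a 95% interval from 0.034 to 0.58 (limma, unadjusted p = 0.0327, adjusted p = 0.524). MF1 averaged 0.30 ± 0.23 and C57 0.32 ± 0.16 (SD, n = 3 pools each).

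Both genes were above 0 on 12 of 12 single arrays. The array values of Rnd2 ran from 0.10 on the array of MF1 pool 3 with rostral RNA in Cy5 to 0.84 on that of MF1 pool 1 with rostral RNA in Cy3. Those of Insm1 ran from 0.037 on the array of C57 pool 2 with rostral RNA in Cy3 to 0.74 on that of C57 pool 1 with rostral RNA in Cy5. Of the 10622 features with a value on all 12 arrays, 26 were above 0 on each, which is 0.245%. The pool means of 479 features, 3.32% of those tested, were above 0 in every pool measured. With arrays not centred the mean of Rnd2 was 0.16 and that of Insm1 0.12, with 10 and 7 arrays above 0. Without MF1 pool 1, 0 of the 8 genes had an unadjusted p under 0.05 by limma, and 1 did without C57 pool 1 or without C57 pool 2, in each case Rnd2. Features at such a p also became fewer, from 1295 of 14418 with all pools to 798 of 13110 without MF1 pool 1. They were 1215 without C57 pool 1 and 1012 without C57 pool 2.

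**Figure D2:**
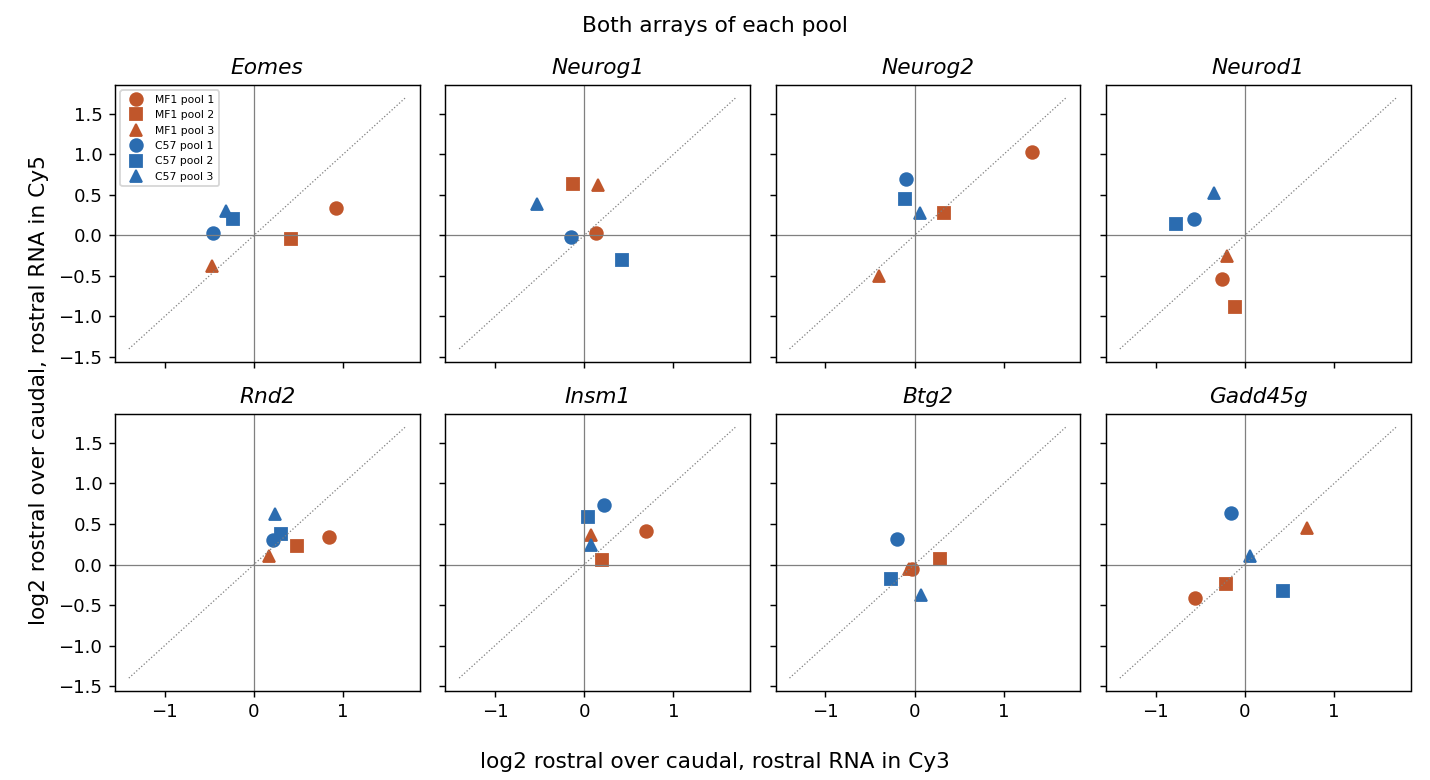
Log2 ratio of rostral over caudal cortex on the array with rostral RNA in Cy3 (horizontal) against that with rostral RNA in Cy5 (vertical), 1 point per pool and 1 panel per gene; the dotted line marks equal values. Rnd2 and Insm1 lie wholly at the upper right, and the C57 pools of Eomes and Neurod1 lie in the upper left.

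Neurog2, the main proneural factor of the dorsal telencephalon, had ratios of 1.17, 0.30 and -0.45 in MF1 pools 1 to 3 and of 0.30, 0.17 and 0.17 in C57 pools 1 to 3. The ratio was above 0 in 5 of 6 pools, and MF1 pool 3 was the one below. The mean was 0.28 ± 0.52 (SD, n = 6), with a 95% interval from -0.21 to 0.77 (limma, adjusted p = 0.712). The SD was 0.81 in MF1 and 0.07 in C57 (n = 3 pools each). The C57 arrays differed by dye, with a mean of -0.047 with rostral RNA in Cy3 and 0.47 with rostral RNA in Cy5, and opposite signs in C57 pools 1 and 2. Without MF1 pool 1 the mean over both strains was 0.070, and without MF1 pool 3 it was 0.47.

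Neurog1, its close relative with an overlapping role, had ratios of 0.078, 0.26 and 0.39 in MF1 pools 1 to 3, and in C57 pools 1 to 3 ratios of -0.081, 0.062 and -0.070. All MF1 pools lay above all C57 pools, and Neurog1 was the only one of the 8 whose strains did not overlap, where 14% of all features had strains that did not overlap in either order. The strain difference was -0.27 for C57 minus MF1, with a 95% interval from -0.77 to 0.23 (limma, unadjusted p = 0.238, adjusted p = 0.949). Over both strains the mean was 0.11 ± 0.19 (SD, n = 6; limma, adjusted p = 0.787), and -0.083 with arrays not centred. Both arrays of a pool had the same sign in 3 of 6 pools.

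Neurod1, a helix-loop-helix factor that acts downstream of the neurogenins as cells become neurons, had ratios of -0.40, -0.49 and -0.23 in MF1 pools 1 to 3, and in C57 pools 1 to 3 ratios of -0.18, -0.31 and 0.088. It was below 0 in 5 of 6 pools, C57 pool 3 being the exception. The mean was -0.25 ± 0.20 (SD, n = 6), 1.19-fold toward caudal, with a 95% interval from -0.52 to 0.011 (limma, unadjusted p = 0.0579, adjusted p = 0.568). Of its 12 arrays 9 were below 0. All 6 MF1 arrays were below 0, between -0.88 and -0.11. In C57 the arrays with rostral RNA in Cy3 averaged -0.56 and those with rostral RNA in Cy5 0.29, so the sign in that strain followed the dye in each pool.

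Eomes, the T-box factor that defines intermediate progenitors, had ratios of 0.63, 0.19 and -0.43 in MF1 pools 1 to 3, and in C57 pools 1 to 3 ratios of -0.21, -0.015 and -0.0075. MF1 pool 1 was the highest and MF1 pool 3 the lowest of the 6. The mean was 0.025 ± 0.36 (SD, n = 6; limma, adjusted p = 0.969), and it was -0.099 without MF1 pool 1 and -0.16 when arrays were left uncentred. Its 95% interval ran from -0.34 to 0.39, which leaves room for a 1.31-fold rostral or a 1.27-fold caudal excess. The C57 pool means are averages of arrays of opposite sign, at -0.33 on average with rostral RNA in Cy3 and 0.18 with rostral RNA in Cy5. Eomes and Neurod1 were the 2 genes of the set with opposite signs by dye in all 3 C57 pools, as were 16% of the features with a value on all arrays; in MF1 0 of the 8 were, and 4.43% of features.

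Btg2, an antiproliferative gene switched on in progenitors about to make neurons, had ratios of -0.039, 0.18 and -0.056 in MF1 pools 1 to 3, and in C57 pools 1 to 3 ratios of 0.060, -0.22 and -0.15. The values lay on both sides of 0 in both strains. The mean was -0.038 ± 0.14 (SD, n = 6; limma, adjusted p = 0.929). Its interval was among the narrowest of the set, from -0.29 to 0.22, or 1.22-fold caudal to 1.16-fold rostral. Both arrays of a pool had the same sign in 4 of 6 pools. They were opposite in C57 pool 1, at -0.20 and 0.32 with rostral RNA in Cy3 and in Cy5. In C57 pool 3 they were opposite too, at 0.075 and -0.38.

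Gadd45g, a growth-arrest gene of cells leaving the cell cycle, had ratios of -0.48, -0.23 and 0.57 in MF1 pools 1 to 3, and in C57 pools 1 to 3 ratios of 0.24, 0.050 and 0.082. MF1 pool 3 was the highest and MF1 pool 1 the lowest. In C57 pools 1 and 2 the 2 arrays had opposite signs. With rostral RNA in Cy3 and in Cy5 they were at -0.15 and 0.64 in C57 pool 1 and at 0.42 and -0.32 in C57 pool 2. The mean over the 6 pools was 0.039 ± 0.37 (SD, n = 6; limma, adjusted p = 0.953). It was -0.12 without MF1 pool 3 and -0.15 when arrays were left uncentred.

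**Figure D3:**
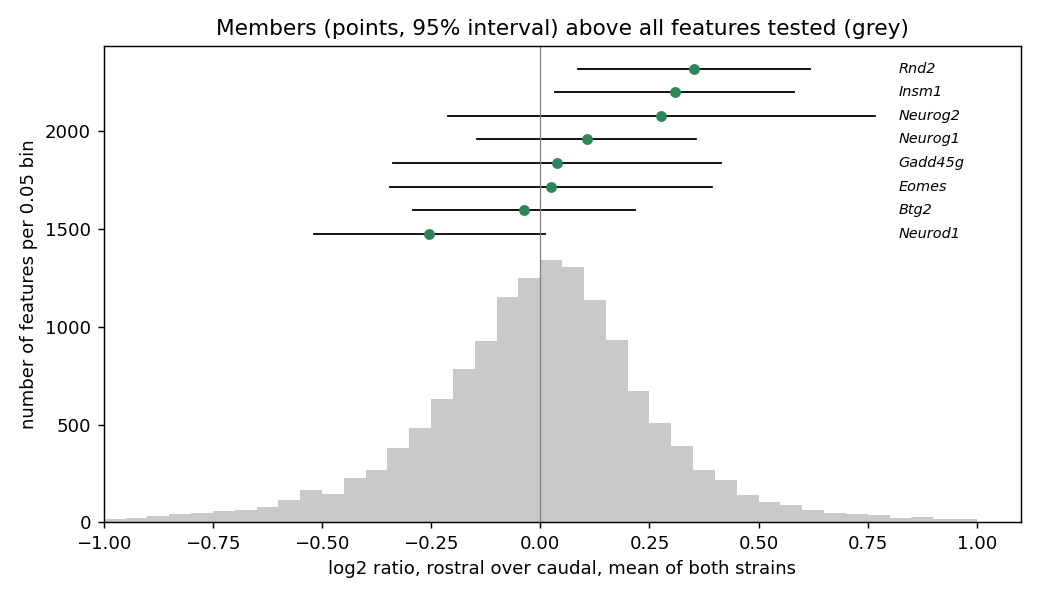
Mean log2 ratio over both strains of the 8 genes (green points, with limma's 95% interval as a line) drawn above the number of features per bin of mean ratio (grey bars, vertical axis; the range from -1 to 1 is shown). The intervals of Rnd2 and Insm1 lie above 0 and those of the other genes hold 0; all points lie inside the spread of the grey bars.

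The MF1 pools were spread widely for 3 of these genes. From pool 1 to pool 3 the ratio of Neurog2 differed by 1.62 and that of Eomes by 1.05, pool 1 being higher, while Gadd45g differed by 1.05 with pool 3 higher. A difference of 1 or more between these pools, in either direction, was found in 3 of the 8 genes and in 15.7% of 13194 features with values in both pools. Both arrays of the pool gave the same picture: Neurog2 was at 1.32 and 1.03 in pool 1 and at -0.40 and -0.50 in pool 3 with rostral RNA in Cy3 and in Cy5. Gadd45g was at -0.56 and -0.41 in pool 1 and at 0.69 and 0.45 in pool 3. Eomes was at 0.92 and 0.33 in pool 1 and at -0.47 and -0.38 in pool 3. Related genes went both ways. Of 47 proneural pathway genes, 3 were higher by 1 or more in pool 1 and 3 in pool 3, where 7.36% and 8.31% of all features were. Tbr1, the T-box factor that follows Eomes in newborn neurons, was at 1.36, 0.49 and -0.52 in MF1 pools 1 to 3. The Notch ligand Dll1 was at 1.20, 0.22 and -0.43, and the third such gene was Nhlh2. Higher in pool 3 were Rnd3, at -0.096, -0.051 and 1.03, Nrn1, at -0.16, -0.028 and 1.33, and Tcf4. Tcf4 counts here only because its second probe, at -2.65 in pool 1, had no value in pool 3. Its first probe was at -0.20 in pool 1 and -0.36 in pool 3, so it was lower in pool 3. Of 15 genes of postmitotic neurons 3 were higher by this much in pool 1 (Tbr1, Dcx and Crmp1) and 1 in pool 3, the neuronal tubulin Tubb3, at -0.65, -0.27 and 0.82. These genes were named after their values were seen. The median of postmitotic neuron genes was 0.14, -0.21 and -0.062 in the same pools and that of cell cycle genes 0.12, 0.038 and 0.37. That of the 3 red blood cell genes was -0.64, -0.041 and 0.88, with the globins Hba-a1 at -0.65 and 0.88 and Hbb-y at -0.64 and 0.89 in pools 1 and 3. The part of these lists in the differences was not tested.

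Among 8871 other named genes with values in all 6 pools, those whose profile over the pools was most like that of Eomes by Pearson's r were Pabpc1 (r = 0.999), Glud1 (0.998), Nisch (0.996), Srsf2 (0.995) and Sox10 (0.994). The measure rests on 6 pools, and 212 of these genes had an r over 0.9. For the median profile of the 8 genes they were Pcdh8 (0.996), Ppp2r2d (0.996), 7420701I03Rik (0.992), Trp53inp2 (0.987) and Srrm4 (0.984).

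By strain, 0 of the 8 genes passed in MF1 (limma, adjusted p of 0.9995 for each), in C57 (limma, adjusted p from 0.548 to 0.962) or for the difference between strains (limma, adjusted p from 0.949 to 0.9975). At an unadjusted p under 0.05 there were likewise 0 in each, against 4.36% of all features in MF1, 9.71% in C57 and 6.1% for the difference. Of all features 0% passed after adjustment in each of the 3. The median of the 8 genes was 0.18 in MF1 and 0.048 in C57. In C57 it was -0.065 with the arrays that had rostral RNA in Cy3 alone and 0.23 with the others alone. Each array held 1 strain, so a difference between strains cannot be told apart from one between sets of arrays; the spread of single arrays, as the median absolute deviation scaled to an SD, was 0.38 to 0.64 in MF1 and 0.64 to 0.88 in C57.

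The wider proneural pathway was read from a list of 55 genes, of which 50 had a probe and 47 could be tested. By limma 0 passed after adjustment, and 5 were higher and 5 lower rostrally at an unadjusted p under 0.05, beside 4.34% and 4.64% of all features. The list's median was 0.024, with 27 genes above 0 and 20 below. The 6 of smallest p pointed both ways, with limma's adjusted p between 0.366 and 0.484. Above 0 in every pool measured were Gadd45b at 0.68 ± 0.23 (SD, n = 5), Hes5, a Notch target that restrains the neurogenins, at 0.49 ± 0.50 (n = 6) and the neural POU factor Pou3f2 at 0.43 ± 0.21. The 2 probes of Pou3f2 disagreed, with means over 6 pools of -0.039 and 0.89, and only the second was above 0 in 6 of 6 pools. Hes5 averaged 0.89 in C57 and 0.088 in MF1, and the difference did not pass (limma, adjusted p = 0.752). Below 0 were Tcf4, an E protein that pairs with proneural factors, at -0.52 ± 0.44 and Btg1 at -0.46 ± 0.30, both below 0 in 6 of 6 pools, and Id3, an inhibitor of E proteins, at -0.45 ± 0.35, above 0 in MF1 pool 3 alone. The 2 probes of Tcf4 averaged -0.35 over 6 pools and -0.77 over 5, the second with MF1 pool 1 at -2.65. The other E proteins were at 0.020 (Tcf3) and -0.026 (Tcf12). Of the other Notch pathway genes in the list, Hes1, Hes6 and Dll1 were at 0.19 ± 0.86, 0.22 ± 0.26 and 0.13 ± 0.72, and Hey1 and Mfng at 0.024 ± 0.19 and 0.25 ± 0.25 (SD, n = 6), with Mfng at an unadjusted p of 0.0475 by limma across all features. Dll3 was at -0.18 ± 0.37 (n = 5), Numb at 0.00029 ± 0.27 and Numbl at 0.12 ± 0.31.

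The paralogs of the 8 genes were set beside them. In the growth-arrest family, Gadd45b was above 0 in 5 of 5 pools while Gadd45g was at 0.039. Among the antiproliferative genes, Btg1 was at -0.46 ± 0.30, Btg2 at -0.038 and Btg3 at 0.22 ± 0.35 (SD, n = 6). Neurod1 was at -0.25, while Neurod2, Neurod4 and Neurod6, factors of maturing neurons or progenitors, were at 0.21 ± 0.41, 0.058 ± 0.47 and 0.27 ± 0.38. Tbr1 was at 0.53 ± 0.66, above 0 in 5 of 6 pools, against 0.025 for Eomes. Tbx21, a T-box factor known from immune cells, was at -0.80 ± 0.997, led by C57 pool 3 at -2.73. Rnd3 was at 0.32 ± 0.47 with 3 of 6 pools above 0, beside Rnd2 at 0.35 with 6 of 6. Insm2 was above 0 in the 3 MF1 pools, at 0.40, 0.55 and 0.02, and below 0 in the 2 C57 pools measured, at -0.65 and -0.68; the strain difference of -0.99 did not pass (limma, unadjusted p = 0.0127, adjusted p = 0.729). Neurog3 was at -0.14 ± 0.41. The differences between paralogs were not tested.

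**Figure D4:**
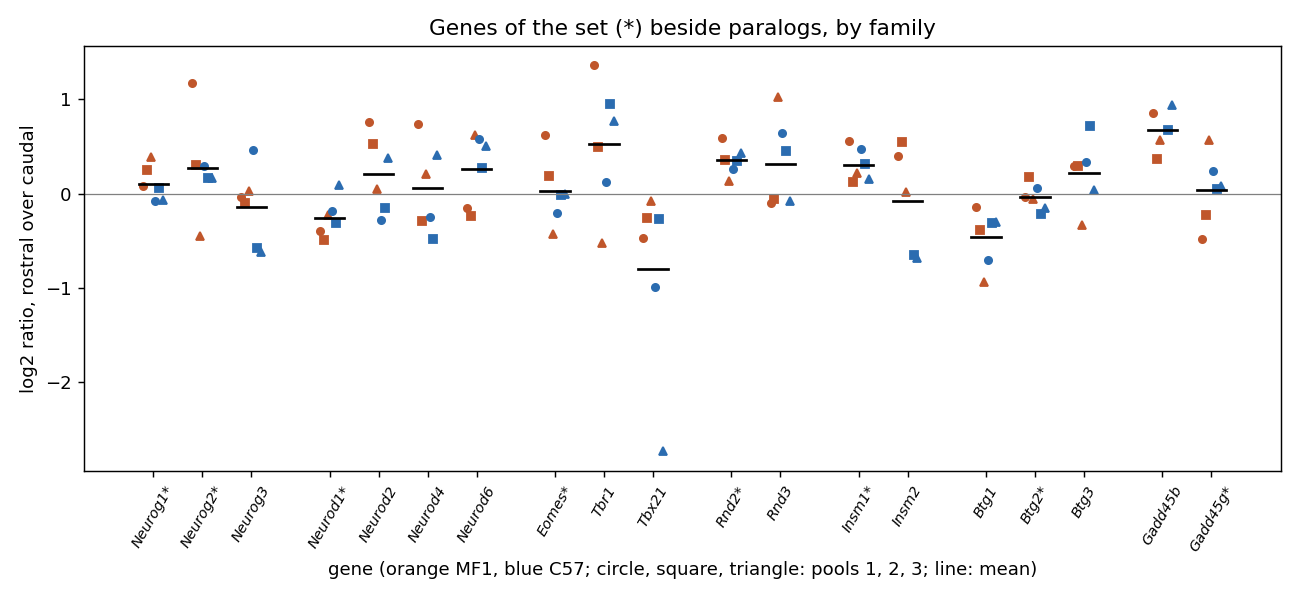
Log2 ratio of rostral over caudal cortex (vertical axis) in each pool for 7 gene families (horizontal axis), MF1 in orange and C57 in blue, with the mean as a line and the genes described here marked by a star. Gadd45b lies above 0 and Btg1 below 0 in every pool measured, where Gadd45g and Btg2 straddle 0.

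Marker lists of the neighbouring stages and of other cells were read on the same scale. The 18 radial glia genes had a median of 0.040 and the 15 genes of postmitotic neurons of 0.012. Cell cycle genes, 27 in number, had their median at 0.21, with 22 above 0 and pool medians from 0.038 to 0.37; with limma, 0 passed after adjustment and 6 were higher at an unadjusted p under 0.05, beside 4.34% of all features. By the same measure 3 radial glia genes were higher and 2 lower, and of the postmitotic neuron genes 1 was higher and 1 lower. Genes of other cells that a dissection could carry had medians of -0.0012 for the ventral telencephalon (12 genes), -0.35 for Cajal-Retzius cells (6), -0.21 for choroid plexus and hem (8), -0.082 for meninges and mesenchyme (11), -0.064 for blood vessels (9), -0.052 for red blood cells (3) and 0.068 for microglia (6). The 6 Cajal-Retzius genes went both ways, with 2 above 0, Reln at 0.30 and Calb2 at 0.155, and 4 below. Pool medians of the meninges genes ran from -0.38 to 0.05 and those of the choroid plexus and hem genes from -0.56 to -0.067. Lower at an unadjusted p under 0.05 by limma were 3 choroid plexus and hem genes and 3 meninges genes, and 0 of either were higher. Over all features 4.64% were lower and 4.34% higher. In the ventral telencephalon list 1 gene was higher and 1 lower. For Cajal-Retzius cells and blood vessels 1 gene each was lower, and for red blood cells and microglia 1 each was higher. In each of these lists 0 genes passed after adjustment by limma. Their part in the values of the 8 genes was not tested, and since the files hold ratios only, levels of markers were not analysed here.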

How the data were processed

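The authors deposited 1 value per probe and array, a log2 ratio between the dyes, as read from the values (signed, around 0, ceiling of 16.61). Per the design text, cDNA was amplified by the SMART method before labelling, which can add spread between pools. For scanner software, numerator and normalization, nothing is stated in the labels or the file; spot intensities were not used here, so signal over background is unknown and the number of arrays limits the precision. Between 17998 and 20997 of 21998 probes had a value per array, and 0 columns belonged to other samples. Probes were named from GEO's platform annotation: 16864 had 1 symbol, 139 several and 4995 none, and those with several were left unnamed. The 701 values at the ceiling were set to missing and arrays (medians from -0.41 to 0.475) centred on their median.

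Arrays with rostral RNA in Cy3 were turned, which takes Cy5 over Cy3 as the convention. Values that run by dye make a pool's 2 arrays deviate in opposite ways from what arrays of that strain and dye order share; Spearman's correlation across probes was -0.213, -0.166 and -0.304 in MF1 and -0.104, -0.137 and 0.0091 in C57 pools 1 to 3. After turning, Pearson's correlation across probes between a pool's 2 arrays was 0.0556, -0.0133 and 0.0885 in MF1 and -0.367, -0.178 and -0.163 in C57, so the turned arrays of each C57 pool disagreed on balance. Both orientations were averaged per pool (both needed), then probes of a gene, and features with at least 2 pools per strain kept. The fit of pool means used limma 3.58.1 under R 4.3.3 (a mean per strain, 1 spread) with Benjamini-Hochberg adjustment over 14418 features. Pool means were simulated as normal noise with each feature's SD over the 6 pools, an SD that also holds any strain difference. Of 50 features changed by 0.5 (log2), 1 was recovered. For changes of 1, 2 and 3 it was 18, 40 and 42 of 50. There were 5 false calls among the unchanged features. The genes and lists were chosen with earlier results of these data known. Named were the 8 genes, from each list the genes at an unadjusted p under 0.05 (at most 6) or else the 2 of smallest p, where a result turned on them, and the paralogs, other Notch genes and reference genes, added after their values were seen.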

Additional observations from a re-analysis of the deposited data

Results flagged for a closer look

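Over the 6 pools, none of the 8 genes had a pool standing apart by Dixon's test, and none had every MF1 pool on one side of 0 and every C57 pool on the other. Among 72 genes checked, 10 others had such a pool. The nominal rate of the test is about 1 in 20. The genes checked were in part chosen by small p or after their values were seen. The share over all features was not computed, so the count cannot be set against chance. Tcf4 was at -1.42 in MF1 pool 1, with the next pool at -0.38, and the neuronal tau gene Mapt at -0.64 in C57 pool 2, with the next at -0.27. Dlx5 was at -0.0175 in MF1 pool 2 against -0.64 in the nearest pool, and Ednrb at -1.01 in C57 pool 2 against -0.35. Icam2 was at -3.12 in C57 pool 1 against -0.96, Ttr at 1.19 in the same pool against -0.84, and Gata1 at 0.71 in C57 pool 3 against 0.36 (5 pools). Tbx21 was at -2.73 in C57 pool 3 against -0.99, Nrn1 at 1.33 in MF1 pool 3 against 0.31 and Fgf17 at -0.86 in C57 pool 2 against -0.015. Ebf1 lay below 0 in both measured MF1 pools (-0.68 and -0.54) and above 0 in both measured C57 pools (2.10 and 1.54); the difference of 2.43 did not pass (limma, adjusted p = 0.6305). Insm2 lay above 0 in all 3 MF1 pools and below 0 in both measured C57 pools, a difference of -0.99 for C57 minus MF1 that did not pass (limma, adjusted p = 0.729).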

How the results depend on the processing

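Under 16 alternatives, 6 of which left out 1 pool, 0 of the 8 genes passed the adjusted threshold in any of the 4 comparisons. Rnd2, Insm1, Neurog2, Neurod1 and Btg2 kept the sign of their mean over both strains in all 16. Eomes turned to -0.16 with arrays not centred and to -0.021 with rostral RNA in Cy3 only, and ran from -0.099 (without MF1 pool 1) to 0.16 (without MF1 pool 3) when 1 pool was left out; Neurog1 to -0.083 and -0.014 in the first 2 of these; Gadd45g to -0.15 in the first, and it ran from -0.12 (MF1 pool 3 left out) to 0.15 (MF1 pool 1 left out). With arrays not centred the median of the 8 genes was -0.12 over both strains, -0.030 in MF1 and -0.11 in C57, and 6.64% of 2168 features at an unadjusted p under 0.05 were higher rostrally, against 48.3% of 1295. With rostral RNA in Cy3 only there were 2554 such features and with Cy5 only 2592. The median of the 8 genes in C57 was then -0.065 and 0.23, and 188 and 118 features passed in C57. With 1 dye order alone, a difference between regions cannot be told apart from one between dyes. The 12 arrays were also fitted singly, with pools as random blocks (consensus correlation 0.00624). In that fit 25 features passed over both strains, 3 in MF1 and 11 in C57. Nr2f1 (limma, adjusted p = 0.00101), Lhx2 (-0.50) and Etv5 (0.54) passed over both strains. At a correlation so near 0 the fit counts both arrays of a pool as nearly separate replicates, though the pool is the replicate. With features in 6 pools only, 5 passed over both strains, Nr2f1 at -1.14 among them. Of other genes, Icam2 turned to 0.25, Fcer1g to -0.023 and Tyrobp to -0.074 with rostral RNA in Cy3 only, Aqp1 to 0.20 with Cy5 only, and Hbb-y ran from -0.47 without MF1 pool 3 to 0.000375 without MF1 pool 2. Leaving out 1 pool gave medians of the 8 genes from 0.070 to 0.12 over both strains, from 0.12 to 0.25 in MF1 and from 0.031 to 0.069 in C57, and 798 (without MF1 pool 1) to 1325 features at an unadjusted p under 0.05. The causes were not tested. With the pool number as a replicate block 976 features were at an unadjusted p under 0.05 by limma, and 0 of the 8 genes were. Same-numbered pools of the strains, which are different animals, correlated at -0.101, 0.0467 and 0.002 in their deviations by Pearson's r. Whether same-numbered pools shared a batch was not tested.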
